A study of Homo sapiens with 12 samples.

Results

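The adrenergic core transcription factors described here are the genes PHOX2A, HAND2, GATA2, GATA3, ISL1, TBX2, INSM1 and SOX11, chosen by name as factors of the adrenergic state of neuroblastoma. They are 8 of the 58051 genes in the count table, and all 8 were among the 17774 genes with enough counts to be tested. The libraries were made from polyadenylated RNA of NB-1, an established human neuroblastoma cell line, so every group shares the background of that single line. Cells were kept for 48 h in 0.5 µM BEZ-235, in 0.5 µM SAHA, in both drugs at these doses, or in DMSO, the solvent given to the control cultures. Each of the 4 groups had 3 biological replicates per the labels. BEZ-235 inhibits PI3K and mTOR kinases, and SAHA, also called vorinostat, inhibits histone deacetylases. The comparisons ask how each drug and the pair changed the RNA of these factors, and whether the effect of SAHA was different in the presence of BEZ-235.

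Neuroblastoma arises from sympathoadrenal cells of the neural crest. In cells of the adrenergic type, a small set of transcription factors binds the enhancers of its own members and of genes for catecholamine synthesis and storage, and such mutually bound factors are called a core regulatory circuit. Neuroblastoma cells can also take up a mesenchymal state with other factors. PHOX2A is a paired-like homeodomain protein and ISL1 a LIM homeodomain protein, and both act in the development of autonomic neurons. HAND2 is a basic helix-loop-helix protein of sympathetic precursors, and GATA2 and GATA3 are zinc finger proteins that act downstream in noradrenergic differentiation. INSM1 is a zinc finger protein of neuroendocrine progenitors, TBX2 is a T-box protein known mostly as a repressor, and SOX11 is an HMG-box protein of immature neurons.

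Promoter stretches are shown for HAND2 and PHOX2A, the pair of factors with the highest levels per kb of the longest transcript. A stretch is also shown for ISL1, the factor with the largest change against DMSO. They lie before the RefSeq gene start, are written 5′ to 3′ on the strand of the gene and come from RefSeq on GRCh38.p14. The HAND2 stretch is chr4:173530230-173530479 on the minus strand, the PHOX2A stretch chr11:72244177-72244426 on the minus strand, and the ISL1 stretch chr5:51383198-51383390 on the plus strand. The HAND2 and ISL1 stretches end next to the GENCODE gene start. The PHOX2A stretch lies inside the longer GENCODE span of that gene, given below with its levels. Capitals mark 2 overlapping matches to searched motifs in the HAND2 stretch, the only matches in these stretches.
HAND2: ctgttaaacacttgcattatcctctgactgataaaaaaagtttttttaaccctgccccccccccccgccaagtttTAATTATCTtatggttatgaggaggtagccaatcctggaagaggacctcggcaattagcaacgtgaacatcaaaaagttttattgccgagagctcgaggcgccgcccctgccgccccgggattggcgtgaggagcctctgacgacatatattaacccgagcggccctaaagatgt
PHOX2A: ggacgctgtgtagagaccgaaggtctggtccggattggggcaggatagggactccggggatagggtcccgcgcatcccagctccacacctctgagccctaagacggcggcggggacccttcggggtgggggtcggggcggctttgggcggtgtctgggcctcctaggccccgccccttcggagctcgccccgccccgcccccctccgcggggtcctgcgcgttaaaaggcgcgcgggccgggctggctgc
ISL1: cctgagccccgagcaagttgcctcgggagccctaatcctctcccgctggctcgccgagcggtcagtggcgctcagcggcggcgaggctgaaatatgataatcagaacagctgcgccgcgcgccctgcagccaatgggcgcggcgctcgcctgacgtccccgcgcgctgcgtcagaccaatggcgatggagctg

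The stretches differ in base composition. The HAND2 stretch had a GC content of 49.6%, below the 73.2% of the PHOX2A stretch and the 68.4% of the ISL1 stretch. Windows of 300 bases, 250 before and 50 after a gene start, were searched on both strands for 4 motifs. The E-box CACGTG is bound by MYC family proteins, and CAGATG is another form of the E-box. Homeodomain proteins bind TAATTA, and zinc finger proteins of the GATA family bind the motif AGATAA. In HAND2, TAATTA began 175 bases before the start and overlapped by 3 bases with AGATAA on the other strand. In ISL1, AGATAA began 31 bases before the start, outside the stretch shown. GATA3 had CACGTG in 1 of its 6 windows, 64 bases before that start. PHOX2A with 1 window and GATA2 with 2 windows held none of these letters. Of all 35116 promoter windows, 7.26% held CACGTG, 14.7% CAGATG, 4.84% TAATTA and 10.3% AGATAA. TBX2, INSM1 and SOX11 are named only.

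PHOX2A (ENSG00000165462, chr11:72239077-72245664, minus strand, GENCODE on hg38) had 176, 157 and 127 CPM in BEZ-235 libraries, 111, 139.7 and 144 CPM in SAHA libraries, 202, 278 and 311 CPM in libraries of both drugs, and 157, 163 and 114 CPM in DMSO libraries. CPM are counts relative to the library total, scaled with TMM factors. The libraries of both drugs lay above the other 9, and those of either drug alone overlapped DMSO.

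ISL1 (ENSG00000016082, chr5:51383391-51394738, plus strand) had 10.4, 12.2 and 10.2 CPM in BEZ-235 libraries, 28.1, 29.9 and 35.3 CPM in SAHA libraries, 14.3, 13.4 and 14.6 CPM in libraries of both drugs, and 26.3, 26.4 and 21.8 CPM in DMSO libraries. The 4 groups did not overlap, with BEZ-235 lowest, then both drugs, then DMSO, and SAHA highest.

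HAND2 (ENSG00000164107, chr4:173524969-173530229, minus strand) had 457, 409 and 393 CPM in BEZ-235 libraries, 410.1, 396 and 416 CPM in SAHA libraries, 540.3, 598 and 676 CPM in libraries of both drugs, and 421, 452 and 351 CPM in DMSO libraries. Libraries of both drugs again lay above all others, and the single drugs overlapped DMSO.

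GATA2 (ENSG00000179348, chr3:128479427-128493185, minus strand) had 48.9, 37.8 and 37.4 CPM in BEZ-235 libraries, 33.3, 29.4 and 28.4 CPM in SAHA libraries, 43.3, 47.9 and 56.3 CPM in libraries of both drugs, and 29.3, 33.5 and 28.8 CPM in DMSO libraries. The BEZ-235 libraries and those of both drugs overlapped each other and lay above SAHA and DMSO, which also overlapped. GATA3 (ENSG00000107485, chr10:8045378-8075203, plus strand) had 210.4, 196 and 189 CPM in BEZ-235 libraries, 161, 165 and 175 CPM in SAHA libraries, 205, 246 and 246 CPM in libraries of both drugs, and 167, 179 and 161 CPM in DMSO libraries. Its groups stood in the same order, and again BEZ-235 overlapped both drugs and SAHA overlapped DMSO.

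INSM1 (ENSG00000173404, chr20:20368121-20370949, plus strand) had 13.7, 11.5 and 12.4 CPM in BEZ-235 libraries, 17.6, 18.4 and 21.9 CPM in SAHA libraries, 17.6, 18.6 and 17.1 CPM in libraries of both drugs, and 16.3, 19.1 and 16.8 CPM in DMSO libraries. The BEZ-235 libraries lay below all others, which overlapped. TBX2 (ENSG00000121068, chr17:61399896-61409466, plus strand) had 94.5, 76.8 and 72.6 CPM in BEZ-235 libraries, 104, 102 and 102 CPM in SAHA libraries, 130.3, 158 and 180.3 CPM in libraries of both drugs, and 88.1, 104 and 88.5 CPM in DMSO libraries. The libraries of both drugs lay above the other 9. SOX11 (ENSG00000176887, chr2:5692667-5701385, plus strand) had 207, 242 and 246 CPM in BEZ-235 libraries, 199, 202 and 251 CPM in SAHA libraries, 167, 175 and 159.5 CPM in libraries of both drugs, and 187, 196 and 209 CPM in DMSO libraries. It was the opposite case, with the libraries of both drugs below the other 9. How many of all tested genes show such patterns over the groups was not counted.

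**Figure D1:**
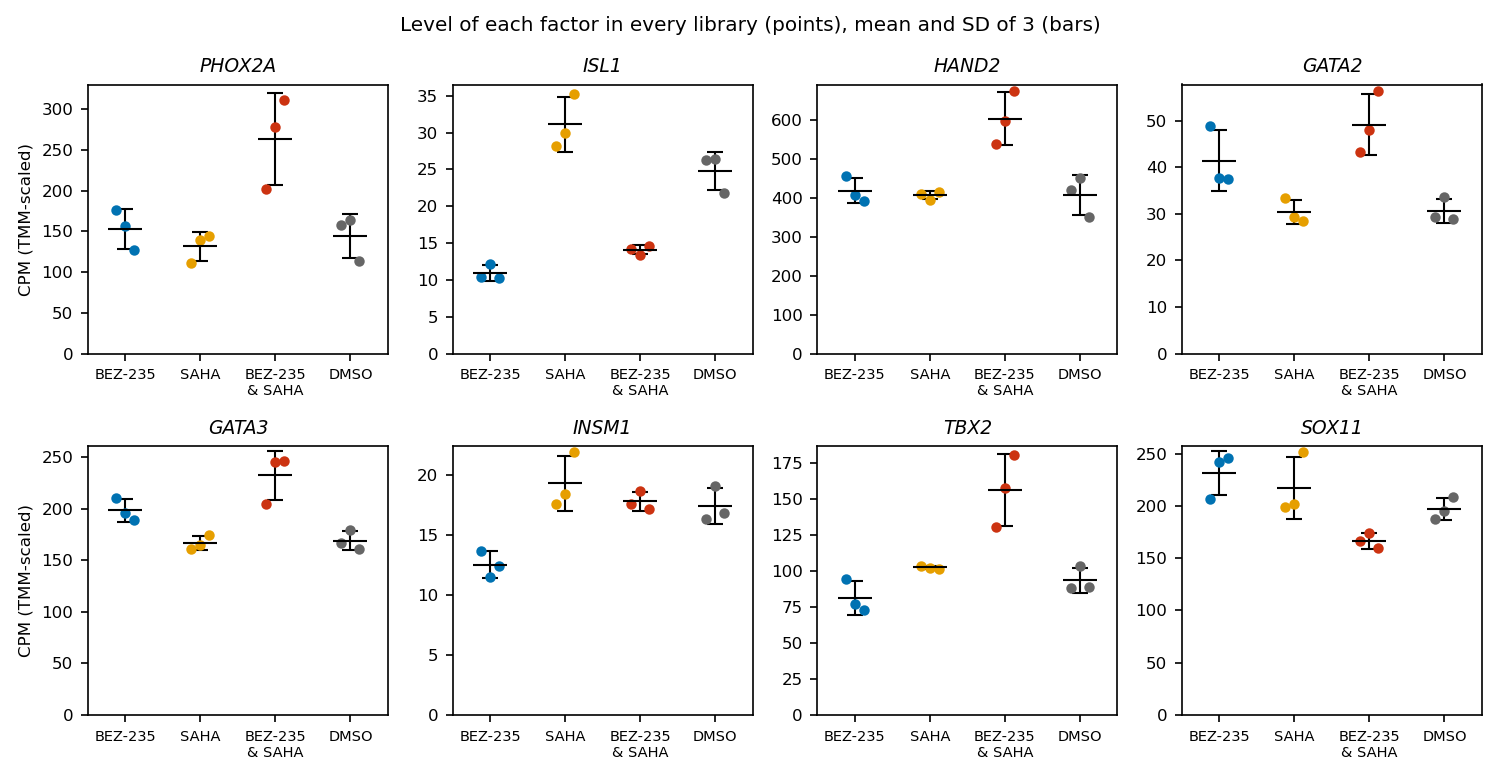
Level of each factor in CPM (vertical axes, from 0) in every library (points) of the BEZ-235, SAHA, BEZ-235 & SAHA and DMSO groups, with the mean and SD of 3 (bars). As counted, the libraries of both drugs lay above all others for PHOX2A, HAND2 and TBX2 and below all others for SOX11. The 4 groups of ISL1 did not overlap. The share of all tested genes with such patterns was not counted.

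Levels of different genes were set side by side as CPM per kb of the longest transcript. In DMSO the order was HAND2 (146.7 ± 18.7, SD, n = 3), PHOX2A (85.2 ± 15.9), GATA3 (54.1 ± 2.91), SOX11 (22.6 ± 1.23), TBX2 (17.9 ± 1.68), ISL1 (10.1 ± 1.06), GATA2 (9.07 ± 0.77) and INSM1 (6.15 ± 0.53). ISL1 and GATA2 overlapped there, and the other neighbours did not. With both drugs HAND2 (217.5 ± 24.5), PHOX2A (155 ± 33.1) and GATA3 (74.3 ± 7.60) kept the first 3 places. TBX2 (29.9 ± 4.80) then stood above SOX11 (19.1 ± 0.87), and ISL1 (5.72 ± 0.24) was last, below INSM1 (6.29 ± 0.28). With BEZ-235, ISL1 (4.44 ± 0.45) and INSM1 (4.42 ± 0.39) overlapped at the bottom, and TBX2 (15.6 ± 2.22) overlapped GATA2 (12.3 ± 1.94). With SAHA the order was that of DMSO, with no overlap between neighbours. Per kb of the union of exons, 17 of these levels moved by at least their SD and 15 did not. By that length INSM1 (6.82) stood just above GATA2 (6.81) with SAHA, and INSM1 (4.42) above ISL1 (3.79) with BEZ-235. The overlaps given here are those for the longest transcript. In bulk RNA, fewer cells of a type and less RNA per cell cannot be told apart.

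The 12 libraries held 17662944 to 79543539 counts, with the deepest, SAHA replicate 2, far above the next at 29544051. The lowest expected count of any factor in any library was 193. All 10 adrenergic neuroblastoma markers were tested, and their summed level was 7383 to 7538 CPM in BEZ-235, 6405 to 6862 CPM in SAHA, 6790 to 7936 CPM with both drugs and 6519 to 7173 CPM in DMSO. Most of this sum was ALK, a receptor tyrosine kinase, at 3739 to 5259 CPM. TH, the first enzyme of catecholamine synthesis, ranged from 29 to 153 CPM over all libraries, with a mean of 138 CPM in DMSO. GAP43 ranged from 16.2 to 263 CPM (mean 111 CPM in DMSO). DBH, which makes noradrenaline, ranged from 0.83 to 4.01 CPM (mean 1.97 CPM in DMSO). Of 9 fibroblast markers, 8 were tested and FAP was at 0 in every library, and their sum was 36.9 to 41.7 CPM in BEZ-235, 419.7 to 471 CPM in SAHA, 174 to 196 CPM with both drugs and 106 to 116 CPM in DMSO. LUM had a large part in this sum, at a mean of 60.7 CPM in DMSO and 9.60 to 335 CPM over all libraries. THY1 came next in DMSO, at a mean of 33.1 CPM and 13.4 to 40.2 CPM over all libraries. COL3A1 ranged from 3.10 to 45 CPM, COL1A1 from 0.47 to 23.9 CPM and PDGFRB from 4.40 to 20.3 CPM. DCN ranged from 0.26 to 16.65 CPM, COL1A2 from 0.77 to 2.73 CPM and PDGFRA from 0.64 to 2.16 CPM. Of 8 Schwann or glial markers, 5 were tested, SOX10 and CDH19 were at 0 everywhere, and the sum was 2.67 to 3.59 CPM in BEZ-235, 8.51 to 10.2 CPM in SAHA, 9.54 to 10.4 CPM with both drugs and 3.07 to 4.91 CPM in DMSO. Leukocyte markers (1 of 7 tested) summed to 0.65 to 2.79 CPM, and endothelial markers (1 of 5 tested) to 2.50 to 5.12 CPM over all libraries. The part of these markers in the changes of the factors was not tested.

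Libraries also differed in how counts ran with the GC content of transcripts. The slope of log2 CPM, as a deviation from the mean of the 12 libraries, per 10 points of GC percent was -0.01, -0.14 and -0.21 in BEZ-235, -0.10, -0.15 and -0.19 in SAHA, 0.20, 0.33 and 0.45 with both drugs, and -0.03, 0.0003 and -0.14 in DMSO. All 3 libraries of both drugs thus had a positive slope, above every other library. The longest transcript had a GC content of 66.5% in PHOX2A, 63.1% in INSM1, 61.4% in TBX2, 59.7% in GATA2, 58.5% in HAND2, 53.7% in GATA3, 47.7% in SOX11 and 45.6% in ISL1. The values of the factors in each comparison are therefore given as counted and, where a value was called either way, also after a correction of every library for GC content and transcript length. The correction also removes any drug effect that itself runs with GC content.

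**Figure D2:**
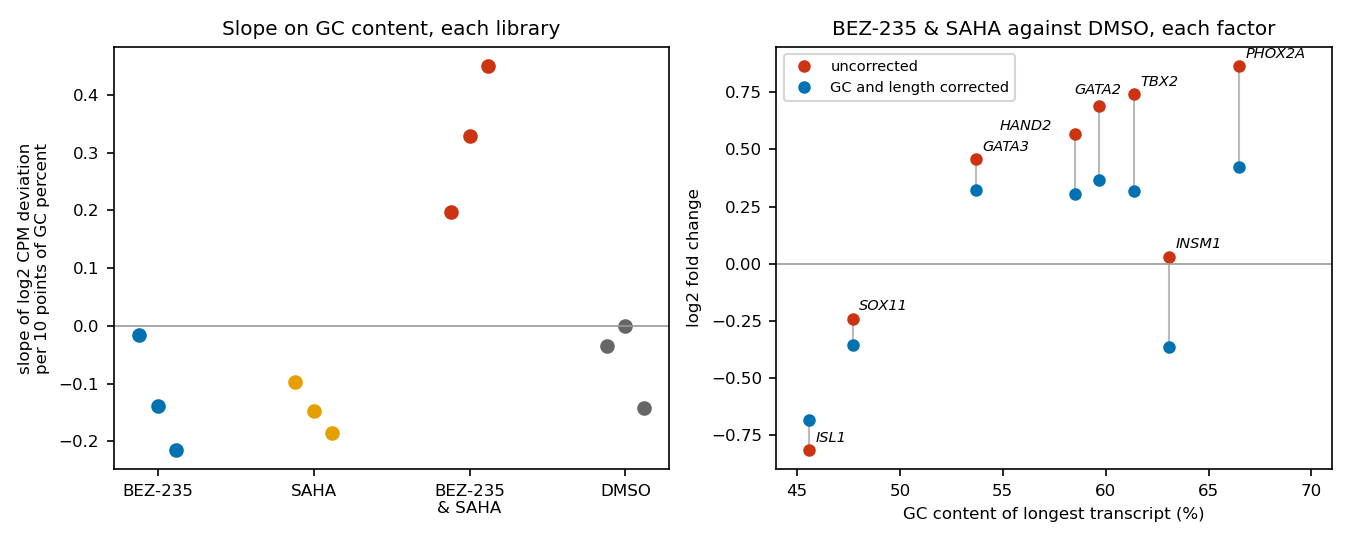
Left, slope of log2 CPM on GC content, per 10 points of GC percent, in each library by group. Right, log2 fold change of BEZ-235 & SAHA against DMSO (vertical axis) against GC content of the longest transcript in percent (horizontal axis), uncorrected and corrected points joined for each factor. PHOX2A was at 0.86 as counted and 0.42 corrected, and ISL1 at -0.82 as counted and -0.69 corrected.

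With BEZ-235 alone, ISL1 changed most. ISL1 fell to 10.9 ± 1.10 CPM in BEZ-235 cells, against 24.8 ± 2.61 CPM in DMSO cells (SD, n = 3 each), and INSM1 fell to 12.5 ± 1.11 CPM in BEZ-235 cells, against 17.4 ± 1.495 CPM in DMSO cells. Both GATA factors rose, GATA2 to 41.4 ± 6.53 CPM in BEZ-235 cells against 30.5 ± 2.59 CPM in DMSO cells, and GATA3 to 198 ± 11.2 CPM in BEZ-235 cells against 169 ± 9.09 CPM in DMSO cells. Thus 2 factors were higher, 2 lower and 4 not past the threshold of an adjusted p under 0.05, where 50.9% of all tested genes were called (25.5% higher and 25.4% lower). The share of factors called was near that background. The libraries of 4 factors did not overlap between these groups, as for 59.2% of all tested genes. Their median absolute log2 fold change was 0.23, against 0.41 over all tested genes.

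The log2 fold change of ISL1 was -1.18 ± 0.12 (SE; edgeR quasi-likelihood test with Benjamini-Hochberg adjustment, adjusted p = 4.13e-07), and -1.15 ± 0.10 after the GC correction (adjusted p = 4.09e-08). For INSM1 it was -0.48 ± 0.11 (adjusted p = 0.00217), and -0.25 ± 0.13 after correction, which was not past the threshold (adjusted p = 0.0964). GATA2 gave 0.44 ± 0.12 (adjusted p = 0.0064) and 0.57 ± 0.07 corrected (adjusted p = 3.98e-06). GATA3 gave 0.23 ± 0.08 (adjusted p = 0.0289) and 0.29 ± 0.07 corrected (adjusted p = 0.00126). Uncorrected, the call of GATA2 was lost without BEZ-235 replicate 1 (0.28, adjusted p = 0.0574). That of GATA3 was lost without BEZ-235 replicate 1 (adjusted p = 0.154) or 2 (0.0767), without DMSO replicate 1 (0.107) or 3 (0.127), and with no filter on low counts (0.149). PHOX2A (0.08 ± 0.19, adjusted p = 0.749), HAND2 (0.04 ± 0.10, 0.766), TBX2 (-0.20 ± 0.12, 0.16) and SOX11 (0.23 ± 0.10, 0.053) were not called, though SOX11 was with a mean CPM of at least 1 (adjusted p = 0.0457) and with only the groups compared (0.0474). After correction PHOX2A (0.39 ± 0.08, adjusted p = 7.56e-04) and HAND2 (0.18 ± 0.06, adjusted p = 0.0222) were higher. The corrected counts were 4 higher and 1 lower, where 56.7% of genes were called.

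SAHA alone changed 1 factor. ISL1 rose to 31.1 ± 3.71 CPM in SAHA cells, against 24.8 ± 2.61 CPM in DMSO cells (SD, n = 3 each), the direction opposite to that with BEZ-235. HAND2 stood at 407 ± 10.4 CPM in SAHA cells and 408 ± 51.9 CPM in DMSO cells, and GATA2 at 30.3 ± 2.59 CPM in SAHA cells and 30.5 ± 2.59 CPM in DMSO cells. Of the 8 factors, 1 was called higher and 0 lower, where 43.1% of all tested genes were called (22.2% higher and 20.9% lower). ISL1 was also the 1 factor whose libraries did not overlap between these groups, as for 54.2% of all tested genes.

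The log2 fold change of ISL1 was 0.33 ± 0.11 (edgeR, adjusted p = 0.0218), and 0.27 ± 0.09 corrected (adjusted p = 0.0214). The call was lost without SAHA replicate 3 (adjusted p = 0.13) or DMSO replicate 3 (adjusted p = 0.118). The other 7 factors ranged in log2 fold change from -0.13 (PHOX2A) to 0.15 (INSM1). After correction PHOX2A (0.23 ± 0.08, adjusted p = 0.03), TBX2 (0.26 ± 0.07, adjusted p = 0.00312) and INSM1 (0.37 ± 0.12, adjusted p = 0.0148) were also higher, where 50.6% of genes were called. The uncorrected value of PHOX2A was -0.13 ± 0.19, so its direction depended on the correction.

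With both drugs, 5 factors rose, 2 fell and 1 was not called, where 64.4% of all tested genes were called (33.2% higher and 31.2% lower). PHOX2A rose to 263 ± 56.3 CPM with both drugs, against 145 ± 26.9 CPM in DMSO, a fold of 1.82, and TBX2 to 156 ± 25 CPM with both drugs, against 93.4 ± 8.76 CPM in DMSO (SD, n = 3 each). GATA2 reached 49.2 ± 6.62 CPM with both drugs and 30.5 ± 2.59 CPM in DMSO. HAND2 reached 605 ± 68.2 CPM with both drugs and 408 ± 51.9 CPM in DMSO, and GATA3 232 ± 23.8 CPM with both drugs and 169 ± 9.09 CPM in DMSO. ISL1 fell to 14.1 ± 0.60 CPM with both drugs, against 24.8 ± 2.61 CPM in DMSO, and SOX11 to 167 ± 7.56 CPM with both drugs, against 197 ± 10.7 CPM in DMSO. The libraries of 7 factors did not overlap between these groups, as for 66.2% of all tested genes. The median log2 fold change of the factors was 0.51 as counted, against 0.03 over all tested genes, and 0.31 corrected, against 0.05.

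As counted, the log2 fold change was 0.86 ± 0.19 for PHOX2A (edgeR, adjusted p = 0.00163), 0.74 ± 0.11 for TBX2 (adjusted p = 3.04e-05) and 0.69 ± 0.12 for GATA2 (adjusted p = 9.72e-05). It was 0.57 ± 0.10 for HAND2 (adjusted p = 1.16e-04) and 0.46 ± 0.08 for GATA3 (adjusted p = 1.40e-04). The same 5 factors were higher after the GC correction, at 0.42 for PHOX2A (adjusted p = 2.84e-04), 0.32 for TBX2 (3.63e-04), 0.37 for GATA2 (2.95e-04), 0.31 for HAND2 (3.01e-04) and 0.32 for GATA3 (3.52e-04). The 5 corrected values lay between 0.31 and 0.42. ISL1 was at -0.82 ± 0.11 (adjusted p = 1.02e-05) and -0.69 ± 0.10 corrected (adjusted p = 9.87e-06). SOX11 was at -0.24 ± 0.10 (adjusted p = 0.0366) and -0.36 ± 0.10 corrected (adjusted p = 0.00701), and its uncorrected call was lost without replicate 3 of both drugs (adjusted p = 0.0876) or DMSO replicate 3 (0.0842). INSM1 stood at 0.03 ± 0.11 (adjusted p = 0.826) as counted and at -0.36 ± 0.12 corrected (adjusted p = 0.0149). Corrected, 5 factors were higher and 3 lower, where 65.6% of genes were called.

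**Figure D3:**
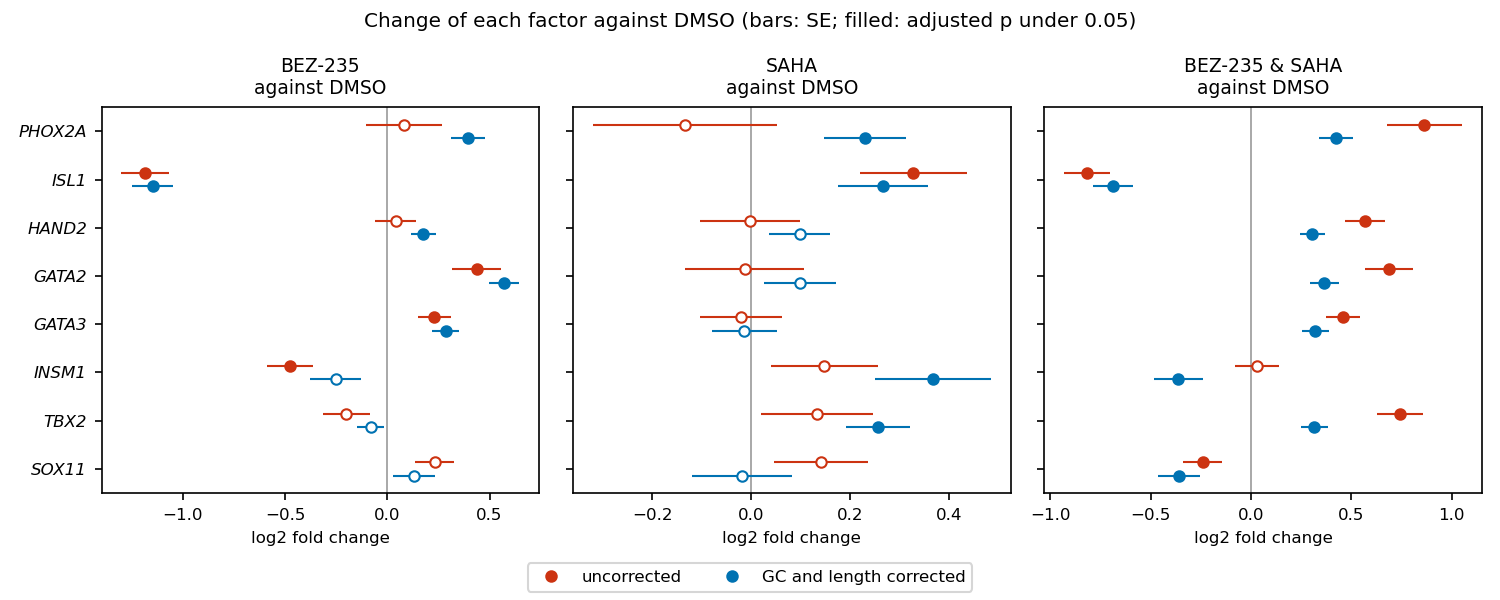
Log2 fold change against DMSO (horizontal axes) of each factor with BEZ-235, SAHA and BEZ-235 & SAHA, as counted and corrected, with bars for the SE and filled points for an adjusted p under 0.05. ISL1 was lower with BEZ-235 (-1.18) and with both drugs (-0.82) and higher with SAHA (0.33).

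The 3 comparisons above share the DMSO libraries, so their values are not independent. Both drugs were next set against BEZ-235 alone, that is, SAHA was added to BEZ-235. As counted, 6 factors were higher, 1 lower and 1 not called, where 58% of all tested genes were called (29.5% higher and 28.5% lower). The libraries of 6 factors did not overlap, as for 62% of all tested genes. As counted TBX2 had the largest difference, at 156 ± 25 CPM with both drugs and 81.3 ± 11.6 CPM with BEZ-235 (SD, n = 3 each), a log2 fold change of 0.94 ± 0.12 (edgeR, adjusted p = 4.09e-06), and 0.40 ± 0.07 corrected (adjusted p = 5.82e-05), where ISL1 and SOX11 differed more. ISL1 was at 14.1 ± 0.60 CPM with both drugs and 10.9 ± 1.10 CPM with BEZ-235, which gave 0.37 ± 0.12 (adjusted p = 0.0149) and 0.46 ± 0.11 corrected (adjusted p = 0.00136). Its uncorrected call was lost without BEZ-235 replicate 1 (adjusted p = 0.0556) or 3 (0.0662). SOX11 was at 167 ± 7.56 CPM with both drugs and 231 ± 21.3 CPM with BEZ-235, which gave -0.47 ± 0.10 (adjusted p = 4.90e-04) and -0.49 ± 0.10 corrected (adjusted p = 0.00104).

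For the other factors the correction changed the call. PHOX2A gave 0.78 ± 0.19 (edgeR, adjusted p = 0.0036) as counted and 0.03 ± 0.08 corrected (adjusted p = 0.782). HAND2 gave 0.53 ± 0.10 (adjusted p = 2.96e-04) and 0.13 ± 0.06 corrected (adjusted p = 0.0812). INSM1 gave 0.51 ± 0.11 (adjusted p = 0.00111) and -0.11 ± 0.13 corrected (adjusted p = 0.477), and GATA3 0.23 ± 0.08 (adjusted p = 0.0269) and 0.03 ± 0.07 corrected (adjusted p = 0.677). The uncorrected call of GATA3 was also lost without BEZ-235 replicate 2 or 3, replicate 2 or 3 of both drugs, or DMSO replicate 1, with adjusted p from 0.0544 to 0.119, and with no filter on low counts (adjusted p = 0.114). GATA2 was not called as counted (0.25 ± 0.12, adjusted p = 0.0803) and was lower after correction (-0.21 ± 0.07, adjusted p = 0.0224). Corrected, 2 factors were higher and 2 lower, where 56.4% of genes were called.

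Against SAHA alone, that is, with BEZ-235 added to SAHA, 5 factors were higher, 2 lower and 1 not called as counted, where 58.8% of all tested genes were called (29.9% higher and 28.9% lower). The libraries of 7 factors did not overlap, as for 63% of all tested genes. ISL1 fell to 14.1 ± 0.60 CPM with both drugs, against 31.1 ± 3.71 CPM with SAHA (SD, n = 3 each), a log2 fold change of -1.14 ± 0.11 (edgeR, adjusted p = 3.58e-07) and -0.95 ± 0.10 corrected (adjusted p = 2.52e-07). SOX11 was lower at -0.38 ± 0.10 (adjusted p = 0.0026) and -0.34 ± 0.10 corrected (adjusted p = 0.0122). GATA2 was higher at 0.70 ± 0.12 (adjusted p = 9.52e-05) and 0.27 ± 0.07 corrected (adjusted p = 0.00453), and GATA3 at 0.48 ± 0.08 (adjusted p = 1.21e-04) and 0.33 ± 0.07 corrected (adjusted p = 3.38e-04). HAND2 was higher at 0.57 ± 0.10 (adjusted p = 1.46e-04) and 0.21 ± 0.06 corrected (adjusted p = 0.0087). PHOX2A was higher at 1.00 ± 0.19 (adjusted p = 7.20e-04) and not called after correction (0.19 ± 0.08, adjusted p = 0.0608), and likewise TBX2 (0.61 ± 0.11, adjusted p = 2.50e-04, and 0.06 ± 0.06 corrected, adjusted p = 0.454). INSM1 was at -0.12 ± 0.11 (adjusted p = 0.363) as counted and -0.73 ± 0.12 corrected (adjusted p = 5.74e-05). Corrected, 3 factors were higher and 3 lower, where 52.9% of genes were called.

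The interaction compares the change that SAHA made on top of BEZ-235 with the change it made on top of DMSO, as the first minus the second. As counted, it was positive for PHOX2A (0.92 ± 0.26 in log2, edgeR, adjusted p = 0.0176), TBX2 (0.81 ± 0.16, adjusted p = 0.00135) and HAND2 (0.53 ± 0.14, adjusted p = 0.00818). It was negative for SOX11 (-0.61 ± 0.13, adjusted p = 0.00235). These are 4 of 8 factors, where 38.4% of all tested genes were called (18.9% higher and 19.6% lower). ISL1, which changed with each drug, had an interaction of 0.04 ± 0.16 (adjusted p = 0.871). After correction that of SOX11 was -0.47 ± 0.14 (adjusted p = 0.0357) and that of GATA2, which was 0.26 ± 0.17 as counted, -0.30 ± 0.10 (adjusted p = 0.0463), a call that was lost when a replicate block was added to the correction (adjusted p = 0.065). Corrected values were not called for PHOX2A (-0.20 ± 0.12, adjusted p = 0.25), TBX2 (0.14 ± 0.09, adjusted p = 0.302) and HAND2 (0.03 ± 0.09, adjusted p = 0.836), so 0 factors were higher and 2 lower, where 20% of genes were called. The uncorrected call of PHOX2A was lost without DMSO replicate 1 (adjusted p = 0.0502) or 2 (0.06).

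**Figure D4:**
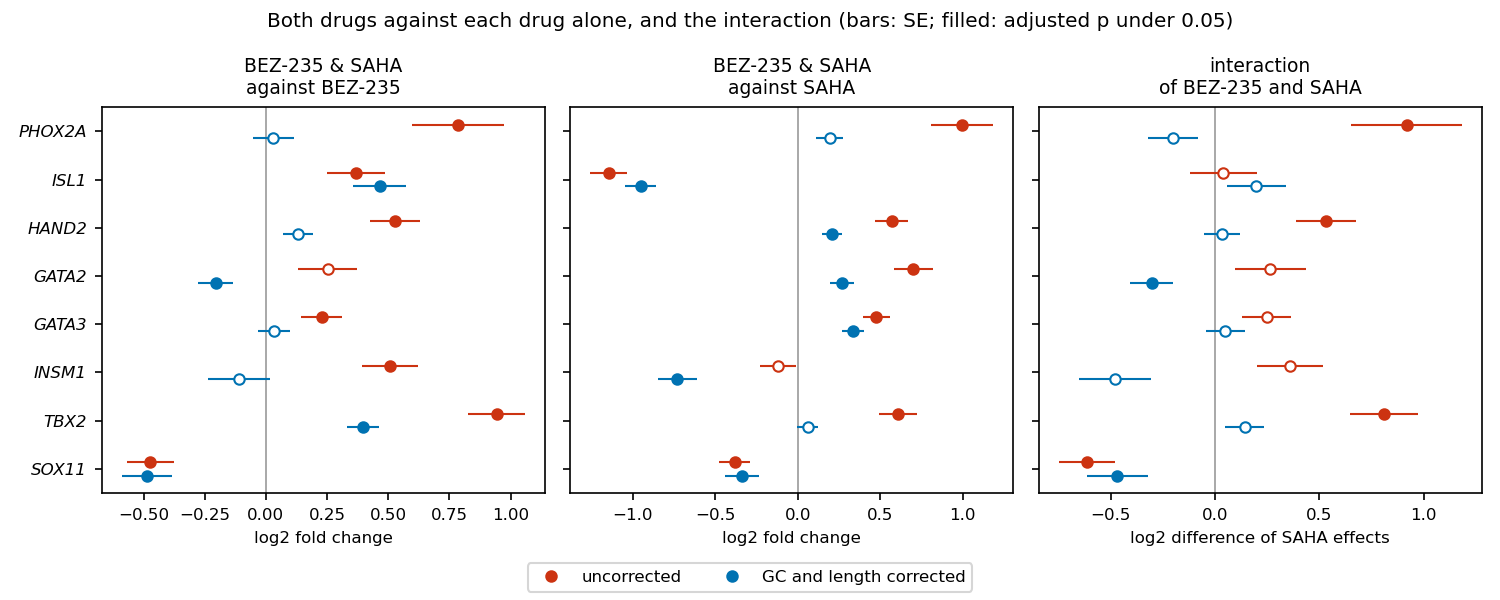
Log2 fold change of BEZ-235 & SAHA against BEZ-235 and against SAHA, and the interaction (log2 difference of SAHA effects), for each factor, as counted and corrected, with bars for the SE and filled points for an adjusted p under 0.05. SOX11 was below 0 in all 3 panels with and without the correction, and the interaction of PHOX2A was 0.92 as counted and -0.20 corrected.

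Several of these genes have an antisense or divergent non-coding neighbour, and 4 of the 5 looked for by name were matched. The divergent gene AC010478.1, whose start lies 59 bases from that of ISL1 on the opposite strand, is in the table and was not analysed here. HAND2-AS1 runs opposite to HAND2, with gene starts 2959 bases apart, and shares 867 exon bases with it, 24.1% of the exon bases of HAND2. The strand setting of the counting is not given in the sources used here, so reads in that stretch may have been assigned to either gene. HAND2-AS1 had 853, 934 and 914 CPM in BEZ-235 libraries, 621, 578 and 547 CPM in SAHA libraries, 573, 721 and 671 CPM in libraries of both drugs, and 665, 579.7 and 735 CPM in DMSO libraries. Only the BEZ-235 libraries lay apart, at 0.45 ± 0.10 against DMSO in log2 (edgeR, adjusted p = 0.0013; 0.45 corrected), where HAND2 itself was at 0.04 (0.18 corrected). With both drugs it was at -0.01 ± 0.10 against DMSO as counted (adjusted p = 0.936) and 0.34 ± 0.10 corrected (adjusted p = 0.00799), where HAND2 was at 0.57 and 0.31.

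GATA3-AS1, with its start 8106 bases from that of GATA3 and no shared exon bases, had 13.7, 12.3 and 10.6 CPM in BEZ-235 libraries, 18.4, 18 and 17 CPM in SAHA libraries, 34.9, 37.2 and 41.1 CPM in libraries of both drugs, and 12.3, 13.3 and 9.21 CPM in DMSO libraries. The libraries of both drugs lay above all others and SAHA above DMSO. Against DMSO it rose by 1.71 ± 0.13 in log2 with both drugs (edgeR, adjusted p = 8.20e-09; 1.45 corrected) and by 0.62 ± 0.13 with SAHA (adjusted p = 9.44e-04; 0.74 corrected). GATA3 was at 0.46 with both drugs (0.32 corrected) and -0.02 with SAHA (-0.01 corrected). Its interaction was 1.02 ± 0.18 (adjusted p = 6.39e-04) and 0.49 ± 0.12 corrected (adjusted p = 0.00882). GATA2-AS1 rose with BEZ-235, by 0.45 ± 0.14 (adjusted p = 0.0132; 0.56 corrected), a value close to the 0.44 of GATA2. With both drugs GATA2-AS1 was at 0.21 ± 0.14 as counted (adjusted p = 0.209) and -0.0006 ± 0.13 corrected (adjusted p = 0.997). GATA2 was then at 0.69 as counted and 0.37 corrected. TBX2-AS1 rose with BEZ-235 (0.47 ± 0.16, adjusted p = 0.018; 0.78 corrected), with SAHA (0.49 ± 0.15, adjusted p = 0.0156; 0.93 corrected) and with both drugs (1.28 ± 0.15, adjusted p = 1.56e-06; 0.73 corrected). The interactions of TBX2-AS1 (0.32 ± 0.21, adjusted p = 0.25) and GATA2-AS1 (-0.36 ± 0.19, adjusted p = 0.157) were not called as counted. Corrected, both were called negative, at -0.98 ± 0.15 (adjusted p = 2.68e-04) and -0.76 ± 0.18 (adjusted p = 0.00681). That of HAND2-AS1 was not called either way (-0.28 ± 0.14, adjusted p = 0.132, and 0.15 ± 0.14 corrected, adjusted p = 0.499). PHOX2A, TBX2 and SOX11 share 29, 28 and 74 exon bases with INPPL1, AC005746.2 and AC108025.2.

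**Figure D5:**
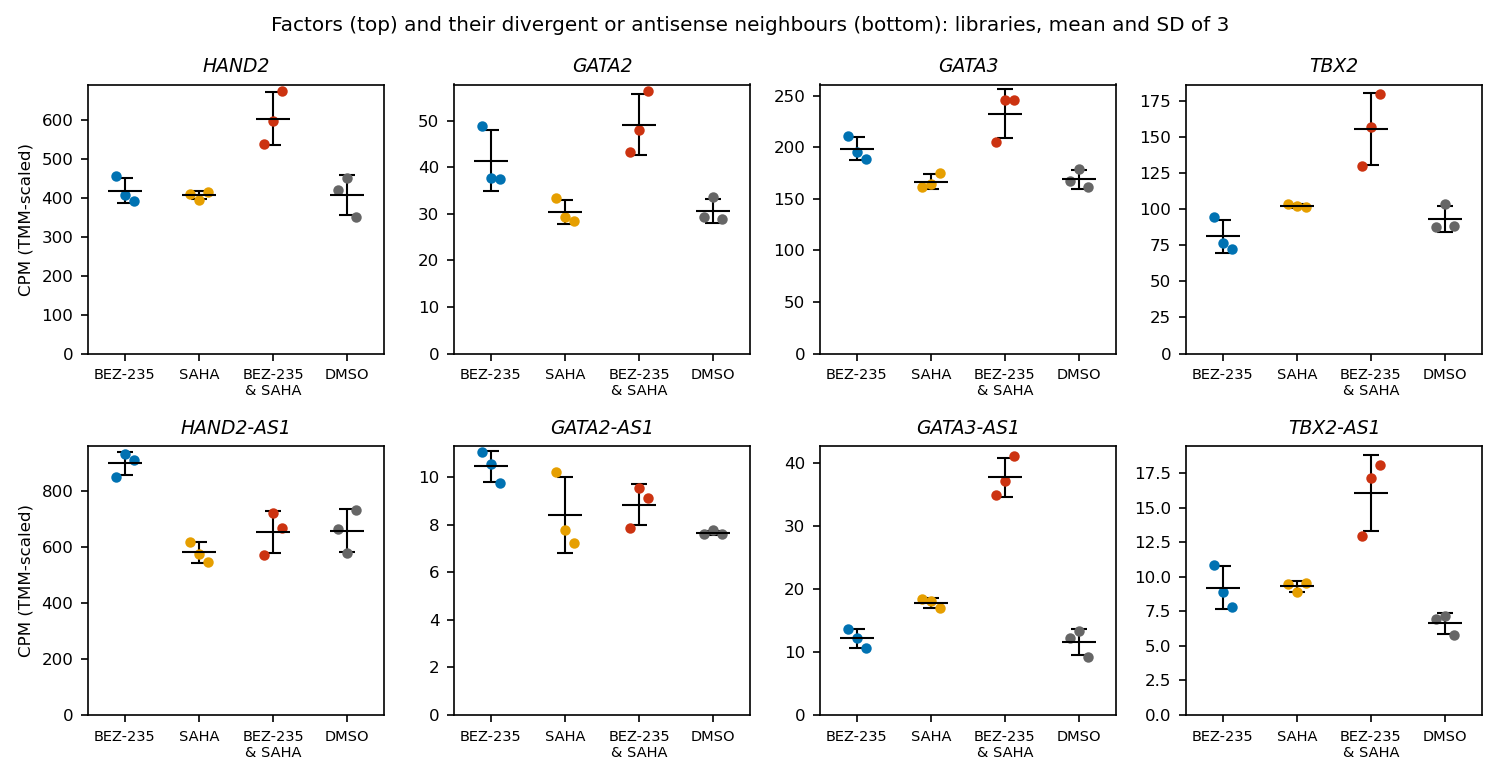
Level in CPM (vertical axes, from 0) of HAND2, GATA2, GATA3 and TBX2 (top) and of their non-coding neighbours (bottom) in every library (points) by group, with mean and SD of 3 (bars). GATA3-AS1 with both drugs stood at 34.9 to 41.1 CPM, above the libraries of the other groups.

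Lists of related genes were set beside the shares of all tested genes called against DMSO, which were 50.9% with BEZ-235, 43.1% with SAHA and 64.4% with both drugs, at medians of 0.02, -0.01 and 0.03. Of 17 other adrenergic core factors tested, 6 were higher and 6 lower with BEZ-235, 6 higher and 2 lower with SAHA, and 8 higher and 4 lower with both drugs. Their median log2 fold changes were 0.02, 0.21 and -0.04. After the GC correction the counts were 7 and 6, 5 and 3, and 8 and 6, where 56.7%, 50.6% and 65.6% of genes were called. KLF13, a zinc finger factor, rose by 0.81 ± 0.07 with BEZ-235 (edgeR, adjusted p = 4.82e-08; 0.84 corrected) and by 0.75 ± 0.07 with both drugs (adjusted p = 5.61e-08; 0.42 corrected). HEY1, a Notch target, fell by 1.27 ± 0.09 with BEZ-235 (adjusted p = 1.54e-08; -1.23 corrected) and by 0.50 ± 0.09 with both drugs (adjusted p = 1.68e-04; -0.45 corrected). PROX1, a homeodomain factor, rose by 3.81 ± 0.34 with SAHA (adjusted p = 2.67e-07; 3.68 corrected) and by 3.90 ± 0.34 with both drugs (adjusted p = 5.02e-08; 4.20 corrected). These changes of PROX1 start near the floor, at 0.19 ± 0.04 CPM in DMSO (SD, n = 3) with a lowest expected count of 3. It reached 2.74 ± 0.21 CPM with SAHA and 2.92 ± 0.67 CPM with both drugs. MYCN, the oncogene amplified in many neuroblastomas, fell with SAHA (-0.34 ± 0.10, adjusted p = 0.0104; -0.28 corrected).

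Of 10 tested paralogs of the factors, 7 were higher and 0 lower with both drugs against DMSO, where 33.2% of all tested genes were higher. Their median was 0.72 as counted and 0.46 corrected, with 5 higher and 3 lower after correction, where 65.6% of genes were called. TBX5 rose by 0.70 ± 0.07 (edgeR, adjusted p = 1.32e-07; 0.66 corrected) and GATA4 by 0.73 ± 0.08 (adjusted p = 5.36e-07; 0.37 corrected). With each single drug 4 paralogs were higher and 1 lower, where 50.9% of all tested genes were called with BEZ-235 and 43.1% with SAHA. After correction 7 were higher and 1 lower with BEZ-235, where 56.7% of genes were called. With SAHA 4 were higher and 1 lower after correction, where 50.6% of genes were called. TBX3 was among those higher with BEZ-235 (0.71 ± 0.09, adjusted p = 8.17e-06; 0.71 corrected). Of 8 tested GATA cofactors and LIM partners, 4 were higher and 3 lower with both drugs, and 3 higher and 3 lower after correction. Of all tested genes, 64.4% were called as counted and 65.6% corrected. ZFPM1, a cofactor of GATA proteins, rose by 1.60 ± 0.20 (adjusted p = 2.59e-06; 1.07 corrected), while LMO3, a LIM-only protein, fell by 2.53 ± 0.16 (adjusted p = 1.12e-09; -1.92 corrected). LDB1, which bridges LIM proteins, rose with BEZ-235 (0.46 ± 0.08, adjusted p = 1.66e-04; 0.62 corrected).

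Of 19 tested adrenergic lineage genes, 5 were higher and 12 lower with BEZ-235 (median -0.65), 8 higher and 8 lower with SAHA (median -0.004), and 5 higher and 10 lower with both drugs (median -0.36), where 25.4%, 20.9% and 31.2% of all tested genes were lower. The corrected counts were 5 and 12, 8 and 7, and 6 and 11, with medians of -0.64, -0.06 and -0.45. The corrected shares of all genes called were 56.7%, 50.6% and 65.6%. GAP43, a growth cone protein, fell by 2.66 ± 0.10 with BEZ-235 (edgeR, adjusted p = 4.97e-12; -2.62 corrected) and rose by 1.13 ± 0.09 with SAHA (adjusted p = 8.65e-08; 1.08 corrected). SCG2, a secretory granule protein, rose by 1.98 ± 0.10 with SAHA (adjusted p = 8.04e-10; 1.94 corrected) and by 2.02 ± 0.10 with both drugs (adjusted p = 5.83e-11; 2.31 corrected). SLC6A2, the noradrenaline transporter, fell by 2.83 ± 0.37 with both drugs (adjusted p = 4.89e-06; -2.99 corrected), and CYB561, a granule cytochrome, by 2.43 ± 0.15 (adjusted p = 7.02e-10; -2.69 corrected). The level of SLC6A2 was low, at 1.48 ± 0.22 CPM in DMSO and 0.20 ± 0.04 CPM with both drugs (SD, n = 3 each). Its lowest expected count with both drugs was 3.

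Of 18 tested mesenchymal state factors, 2 were higher and 6 lower with BEZ-235, 6 higher and 4 lower with SAHA, and 3 higher and 8 lower with both drugs, where 50.9%, 43.1% and 64.4% of all tested genes were called. After correction 2 were higher and 6 lower with BEZ-235, 3 higher and 5 lower with SAHA, and 4 higher and 5 lower with both drugs, so the balance with SAHA turned. Of all genes, 56.7%, 50.6% and 65.6% were then called. NOTCH3, a Notch receptor, fell by 1.72 ± 0.14 with BEZ-235 (edgeR, adjusted p = 2.95e-08; -1.63 corrected). It rose by 0.87 ± 0.12 with SAHA (adjusted p = 2.31e-05; 0.97 corrected) and by 0.86 ± 0.12 with both drugs (adjusted p = 1.01e-05; 0.33 corrected). RUNX1, a runt domain factor, fell by 1.14 ± 0.17 with both drugs (adjusted p = 1.92e-05; -1.20 corrected).

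As a description over the 12 libraries, which share the 4 treatments and the GC trend, the levels of the factors were correlated in log2 CPM as follows. PHOX2A and HAND2 had Pearson's r = 0.958, GATA2 and GATA3 0.935, PHOX2A and GATA3 0.913, and HAND2 and TBX2 0.899. The lowest were TBX2 and SOX11 at -0.811 and GATA2 and ISL1 at -0.768. Among 10397 ranked genes, those most alike to the factors included MID1IP1 (0.972) and BAD (0.967) for PHOX2A, TSC22D4 (0.987) and REEP2 (0.986) for HAND2, and TMEM179 (0.988) and GHDC (0.977) for GATA2. For GATA3 they were FBRS (0.977) and ICAM5 (0.973), for ISL1 PSRC1 (0.986) and CCDC80 (0.985), and for TBX2 MMP15 (0.987) and LRFN3 (0.98). For INSM1 they were CYB5A (0.955) and PRADC1 (0.948), and for SOX11 UBE2W (0.96) was among the 2.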

How the data were processed

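RNA was extracted with an on-column DNase step and made into stranded poly-A libraries, per the labels' protocols. Reads were processed with STAR and RSEM on hg38, per the submitters' processing notes. For the versions, the annotation and the strand setting, nothing is given in the sources used here. The authors deposited expected counts, which RSEM estimates per gene, unscaled for depth or length. Between 80.1 and 84.8% of values per library were whole, and no pair of libraries held the same values. Counts were rounded before testing. GENCODE release 29 gave symbols and coordinates for 57447 identifiers, and RefSeq on GRCh38.p14 the promoters.

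All 12 libraries were fitted in 1 model of 4 group means (residual degrees of freedom, 8) by edgeR 4.0.16 (R 4.3.3). It used filterByExpr, TMM factors, which were 0.981 to 1.03, and the robust quasi-likelihood test, 2-sided, with a Benjamini-Hochberg adjusted p threshold of 0.05 over 17774 genes. The biological coefficient of variation was 10.6%. The scripts were tested on simulated data. GC content and length were corrected per library with smooth terms in mgcv 1.9.3. Other alternatives were RLE scaling, DESeq2 1.42.0, filters, unrounded values, a replicate block, only the groups compared, and leaving out each library. The labels call the replicates biological and name no cultures, so p-values measure the spread between these samples. Totals of 17662944 to 79543539 counts set the depth.

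The members and lists were chosen with earlier results of these data known. Named genes were the 8 factors, their measured neighbours, up to 2 genes per direction of each list with the smallest p in a comparison, and the 2 most alike genes above a mean level of 3 in log2 CPM. Of the list genes so picked, those shown are a part, chosen after their values were seen, and some genes that the rule picks are not reported here.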

Additional observations from a re-analysis of the deposited data

Results flagged for a closer look

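The effect of SAHA differed between cells with and without BEZ-235 for 4 factors, by the test of the interaction itself (edgeR quasi-likelihood, Benjamini-Hochberg adjusted p under 0.05). As counted, the difference in log2 was 0.92 for PHOX2A, 0.53 for HAND2, 0.81 for TBX2 and -0.61 for SOX11. Of all tested genes, 38.4% were called in this test. After the correction for GC content and length the difference was -0.20 for PHOX2A, 0.03 for HAND2, 0.14 for TBX2 and -0.47 for SOX11, and of these 4 that of SOX11 was called. Groups of 3 libraries were not searched for single outlying samples.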

How the results depend on the processing

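Of the 48 results of the 8 factors in 6 comparisons, 30 were called. DESeq2, RLE scaling, unrounded counts and the replicate block each kept the direction and call of all 48. Same-numbered replicates did not deviate together more than others (correlations -0.16 to 0.13, against -0.14 to 0.16 for other pairs). Deviations from means of 3 libraries cannot decide whether the numbers pair the samples, and the labels state no pairing. With the replicate block, 8562 genes were called for BEZ-235, 7095 for SAHA and 11037 for both drugs against DMSO, 9870 and 9962 for both drugs against BEZ-235 and against SAHA, and 6161 for the interaction.

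The GC and length correction moved results most. Factors called were 4 for SAHA against DMSO, 4 for both drugs against BEZ-235 and 2 for the interaction of BEZ-235 and SAHA, where 3559 genes were called in place of 6834. With the block and this correction together these were 4, 4, 1 (SOX11, with GATA2 lost) and 3128. Signs turned under the correction, alone and then with the block, for SAHA against DMSO in PHOX2A (0.23, 0.22), HAND2 (0.098, 0.098), GATA2 (0.099, 0.10) and SOX11 (-0.019, -0.024), for both drugs against DMSO in INSM1 (-0.36, -0.36), for both drugs against BEZ-235 in GATA2 (-0.21, -0.20) and INSM1 (-0.11, -0.11), and for the interaction in PHOX2A (-0.20, -0.20), GATA2 (-0.30, -0.30) and INSM1 (-0.48, -0.47). Without a filter, signs turned for HAND2 (0.014) and GATA2 (0.0041) with SAHA, INSM1 with both drugs (-0.028) and the ISL1 interaction (-0.0014). With a mean CPM of at least 1 they turned for HAND2 (0.017) and GATA2 (0.0068) with SAHA, and with only the groups compared for HAND2 with SAHA (0.0078). None of the uncorrected values whose sign turned under a filter or in the smaller fit was called. The cause was not tested.

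Without each library in turn, genes called ranged from 7819 to 9422 for BEZ-235, 6333 to 8063 for SAHA, 10697 to 11682 for both drugs against DMSO, 9048 to 10454 against BEZ-235, 9034 to 10585 against SAHA, and 5371 to 7470 for the interaction. Factors called ranged from 3 to 5, 0 to 1, 6 to 7, 5 to 8, 7 to 7 and 3 to 5 in the same order. Signs turned for PHOX2A (-0.079 to 0.19) and HAND2 (-0.071 to 0.11) with BEZ-235, for HAND2 (-0.10 to 0.076), GATA2 (-0.075 to 0.058) and GATA3 (-0.057 to 0.022) with SAHA, for INSM1 with both drugs (-0.038 to 0.079) and for the ISL1 interaction (-0.034 to 0.14). Calls gained were TBX2 (-0.34, adjusted p = 0.0249) and SOX11 (0.0283) with BEZ-235 and GATA2 with both drugs against BEZ-235 (0.0113) without BEZ-235 replicate 1, SOX11 with BEZ-235 (0.0268) and the INSM1 interaction (0.0363) without SAHA replicate 3, and GATA2 with both drugs against BEZ-235 (0.0301) and the GATA3 interaction (0.0188) without replicate 1 of both drugs.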
